A study of Mus musculus with 2 samples.

Results

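Interferon-stimulated genes were followed across the leukocytes of the mouse heart, in hearts of vehicle-treated mice and in hearts taken after a single high dose of isoproterenol (ISO). The set holds 38 genes named in advance by function, and all 38 of them were found among the 23946 genes of the deposited count tables. No measured value entered the choice of a gene, but the set was drawn up with earlier results of these data in view. The members were grouped by role into the Ifit family (3 genes), the Oas family (5), the Ifitm family (4), guanylate-binding proteins (4), transcription factors (4), the ISG15 modifier and its protease (2), nucleic acid sensors (3), Mx GTPases (2), other effectors (9) and chemokines (2).

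The data are 2 single-cell RNA-Seq libraries of live CD45+ (pan-leukocyte marker) cells sorted from hearts of adult female wild-type C57BL6 mice. The control library came from vehicle-injected mice and the ISO library, labelled TTS after takotsubo syndrome, from mice given 200 mg/kg ISO (a beta-adrenergic agonist) by intraperitoneal injection 24 hours earlier. Each library held 3 pooled hearts, so the group was represented by 1 library and the spread between mice is unknown. Differences between groups are therefore given without a test, and the 95% intervals in brackets cover counting error only, which in addition assumes that UMIs (unique molecular identifiers, counted transcripts) are independent although cells share them unevenly. The deposited treatment label gives the ISO dose for both libraries, and the vehicle control was identified from its title and the study's methods.

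Interferons are secreted when cells sense foreign or misplaced nucleic acid. Type I interferons such as IFN-beta act through the receptor of Ifnar1 and Ifnar2 and assemble a complex with STAT2 and IRF9 that binds the interferon-stimulated response element, a paired GAAA motif in the promoters of its targets. Interferon-gamma, made mainly by NK and T cells, acts through Ifngr1 and Ifngr2 and the gamma-activated site of promoters, and it raises Irf1, the guanylate-binding proteins and Cxcl9 in macrophages. Among the products, IFIT proteins bind viral RNA, OAS enzymes sense double-stranded RNA and activate RNase L, IFITM proteins sit in membranes and restrict viral entry, guanylate-binding proteins attack vacuoles and bacteria inside cells, and Mx proteins trap viral nucleocapsids. In the injured heart, a fraction of macrophages and neutrophils with raised interferon-stimulated genes is known from infarction.

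The promoters differ in sequence within families as well as between them, before any count is considered. Windows of 300 bases, from 250 before to 50 after the RefSeq transcription start on GRCm38.p6, were available for 31 of the 38 members and were searched for the letters GAAANNGAAA (or its complement TTTCNNTTTC) and for TTCNNNGAA, the latter reading the same on both strands. The paired GAAA letters were found in 18 of the 31 members and in 3.44% of all 32851 promoter windows, and TTCNNNGAA in 10 of 31 members and 8.3% of all windows. Matches of both motifs overlapped in Bst2 and Ifitm3. All 4 guanylate-binding genes, Isg15, Ifit1 and Ifit3 held the paired letters, as did Ifitm2 and Ifitm3. The windows of 13 members, among them Ifitm1, Ifitm6, Ifit2, Oasl1, Oasl2, Irf1 and Irf7, held none, which says only that the letters are not in those windows. The windows of 5 genes are printed below in lower case with the paired GAAA letters in capitals, for the genes whose values carry the comparisons.

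The window of Ifit3 lies at chr19:34583279-34583578 on the plus strand of GRCm38.p6, that of Isg15 at chr4:156200769-156201068 on the minus strand, Gbp2 at chr3:142620413-142620712 on the plus strand, Ifitm3 at chr7:141010695-141010994 on the minus strand and Ifitm1 at chr7:140967826-140968125 on the plus strand, and each is written from 5' to 3' along its gene. The Ifitm1 window starts inside the span that GENCODE gives the gene, because its RefSeq start is further downstream.
Ifit3: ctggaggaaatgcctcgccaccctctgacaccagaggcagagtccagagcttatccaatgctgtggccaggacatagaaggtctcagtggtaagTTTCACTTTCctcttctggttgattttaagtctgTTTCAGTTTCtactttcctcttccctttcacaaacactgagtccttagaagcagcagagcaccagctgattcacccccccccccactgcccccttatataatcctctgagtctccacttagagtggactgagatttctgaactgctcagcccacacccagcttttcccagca
Isg15: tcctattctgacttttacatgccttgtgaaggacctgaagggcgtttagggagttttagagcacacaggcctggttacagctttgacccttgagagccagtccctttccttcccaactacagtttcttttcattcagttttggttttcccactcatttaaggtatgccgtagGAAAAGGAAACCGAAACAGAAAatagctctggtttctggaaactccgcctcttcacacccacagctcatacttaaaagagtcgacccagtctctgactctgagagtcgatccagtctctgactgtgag
Gbp2: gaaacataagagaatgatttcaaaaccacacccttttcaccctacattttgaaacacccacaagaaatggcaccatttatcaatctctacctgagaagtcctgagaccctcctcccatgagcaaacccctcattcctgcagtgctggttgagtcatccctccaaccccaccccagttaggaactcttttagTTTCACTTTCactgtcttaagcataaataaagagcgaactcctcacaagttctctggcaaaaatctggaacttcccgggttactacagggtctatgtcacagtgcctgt
Ifitm3: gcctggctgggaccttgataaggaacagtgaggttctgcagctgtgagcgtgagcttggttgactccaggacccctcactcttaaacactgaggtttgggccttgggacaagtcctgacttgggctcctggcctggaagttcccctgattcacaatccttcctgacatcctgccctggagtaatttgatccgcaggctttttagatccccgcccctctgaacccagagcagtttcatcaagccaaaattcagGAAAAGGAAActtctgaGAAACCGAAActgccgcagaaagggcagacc
Ifitm1: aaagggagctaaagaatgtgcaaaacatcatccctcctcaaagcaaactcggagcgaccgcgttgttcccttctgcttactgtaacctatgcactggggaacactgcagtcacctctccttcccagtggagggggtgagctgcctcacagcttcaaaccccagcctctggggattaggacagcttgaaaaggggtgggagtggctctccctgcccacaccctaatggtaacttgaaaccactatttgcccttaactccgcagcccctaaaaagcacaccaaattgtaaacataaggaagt

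Several families of members lie in clusters of paralogs. Ifit1, Ifit2 and Ifit3 sit close together on chromosome 19, the 4 Ifitm genes on chromosome 7 and the 4 guanylate-binding genes on chromosome 3. All 5 Oas genes are on chromosome 5, with Oasl1 and Oasl2 at a site apart from Oas1a, Oas2 and Oas3. Members with near-identical copies (Ifit3 and Ifit3b, Oas1a and Oas1g, Gbp3 and Gbp7, Ifi205 and its family, the Ifitm genes) are uncertain where reads could be split between copies by the authors' counting.

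Cells were gated by marker genes into 15 classes after the study's filters, which left 5641 control and 5437 ISO cells. The names of classes are those of the marker lists and mean cells that resemble the type. The gate put 490 control and 201 ISO cells among resident macrophages (Timd4, Lyve1, Folr2), 430 and 292 among other macrophages, 51 and 611 among classical monocytes, 119 and 110 among neutrophils, 63 and 314 among type 2 conventional dendritic cells (cDC2) and 172 and 105 among group 2 innate lymphoid cells (ILC2). These 6 classes had at least 50 cells in each library and were compared. Arg1-high macrophages numbered 5 in control and 1821 in ISO, so they are described in ISO only. B cells numbered 1848 and 37, the reverse imbalance. Another 1434 control and 1182 ISO barcodes carried markers of more than 1 lineage and 239 and 485 carried too few markers, and both sets were kept apart. Ly6g, a defining neutrophil marker, had no UMI in the neutrophils of either library, while the other 11 of 12 neutrophil markers were present. Median UMIs per cell were 4790 in control and 8537 in ISO over all cells kept, and 15 barcodes occurred in both libraries.

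The members' levels depended on the cell class. Levels are UMIs of a gene scaled to the UMI total of its class (CPM), with all cells of a class and library summed, and the core is the sum over 18 members that respond to type I interferon (the Ifit, Oas and Mx genes, Isg15, Irf7, Rsad2, Usp18, Rtp4, Ifi44, Zbp1 and Cxcl10). The core was highest in classical monocytes, at 2573.9 CPM in control and 1564.3 CPM in ISO, and in neutrophils, at 2376.0 and 1443.0 CPM. Other macrophages followed with 1089.3 and 1014.7 CPM, Arg1-high macrophages of ISO with 1149.9 CPM, cDC2 with 999 and 646 CPM and resident macrophages with 687 and 699 CPM. B cells were at the bottom of the order, with 138 and 139 CPM. The order of the core in ISO was not that of the control, since cDC2 stood above resident macrophages in control and below them in ISO. Single members followed their own classes. Bst2, the surface tether of budding virus, was at 5968.9 CPM in control plasmacytoid dendritic cells (12 cells) and 5348.0 CPM in those of ISO (36 cells), against 17.6 to 482 CPM in the 6 compared classes. Ifi205, of the HIN-200 family, was at 527 and 782 CPM in type 1 conventional dendritic cells (cDC1) and at most 146 CPM in the compared classes.

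**Figure D1:**
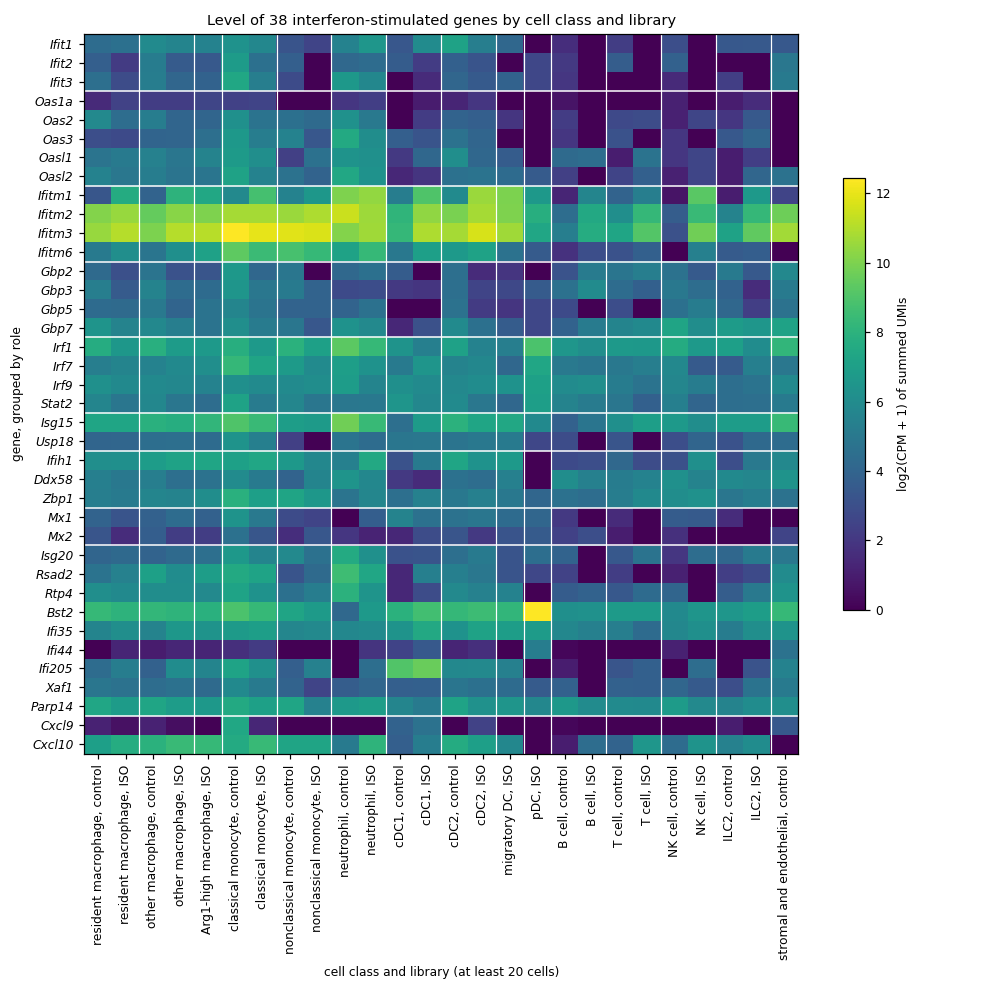
Level of each member (rows, grouped by role) in each class and library with at least 20 cells (columns), as colour on a log2(CPM + 1) scale of the summed UMIs. Bst2 is brightest in plasmacytoid dendritic cells of ISO, at 5348.0 CPM, Ifi205 in cDC1, and Isg15 in control neutrophils, at 853 CPM.

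Between libraries the members did not move as 1 set. A gene was compared in a class when it had at least 20 UMIs in both libraries together, which 20 to 37 of the 38 members reached, depending on the class, and it counted as higher or lower when the ratio of ISO over control was at least 2-fold. In resident macrophages 2 of 35 members were higher and 7 lower, where 7.8% of all genes were higher and 9.76% lower, and the median log2 ratio of members was -0.22 against -0.05 for all genes. Other macrophages had 5 of 36 members higher and 9 lower, against 9.47% and 12.4% of all genes, with medians of -0.12 and -0.06. In both macrophage classes the share of higher members was thus near the background and the share of lower members above it. In classical monocytes 1 of 37 was higher and 15 were lower, against 10.7% and 14.6% of all genes, with medians of -0.91 and -0.14, the lowest median of the 6 classes. In the same class the 12 macrophage markers, all detected in both libraries, went from 4078.2 to 8491.2 CPM in sum, and their part in the members' values was not tested. Neutrophils had 5 of 30 higher and 8 lower, against 27% and 13.4%, with medians of -0.28 and 0.13. In cDC2 1 of 34 was higher and 8 were lower, against 9.14% and 9.3%, with medians of -0.36 and -0.01. In ILC2 the direction was opposite, with 8 of 20 higher and 1 lower, against 11.2% and 6.41%, and medians of 0.57 and 0.12. When the 3 macrophage classes and classical monocytes were summed as 1 class (976 and 2925 cells), a view chosen after seeing the data, 4 of 38 members were higher (Ifitm1, Ifitm6, Ifi44 and Ifi205) and 10 lower, against 8.52% and 23.6% of all genes, with medians of -0.04 and -0.32, so that the lower members of the separate classes were near the background there. Ifi44 stayed under 20 UMIs in every compared class, and its highest count there was 17 UMIs over both libraries, in classical monocytes.

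The families separated. Of the 192 pairs of a member and a class with 20 UMIs, 22 were at least 2-fold higher in ISO and 48 at least 2-fold lower, where 11.3% of all 50112 pairs of a gene and a class were higher and 11% lower. The Ifitm family accounted for 11 of the 22 higher pairs and for no lower pair, and its median log2 ratio over 23 pairs was 0.93. The guanylate-binding genes had 12 lower and no higher pairs of 21 (median -1.23), the Oas family 9 lower and none higher of 22 (median -0.61), the Ifit family 7 lower and 1 higher of 15 (median -0.86) and the transcription factors 8 lower and 1 higher of 24 (median -0.69). The other effectors went both ways, with 6 higher and 5 lower pairs of 44 (log2 ratios from -1.58 to 2.43, median -0.00), and the nucleic acid sensors had 2 higher and none lower of 18 (median -0.14). Summed over its genes, each subgroup gave the same order of medians over the 6 classes, with -0.96 for guanylate-binding genes, -0.79 for Ifit, -0.74 for Oas and 0.79 for Ifitm.

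**Figure D2:**
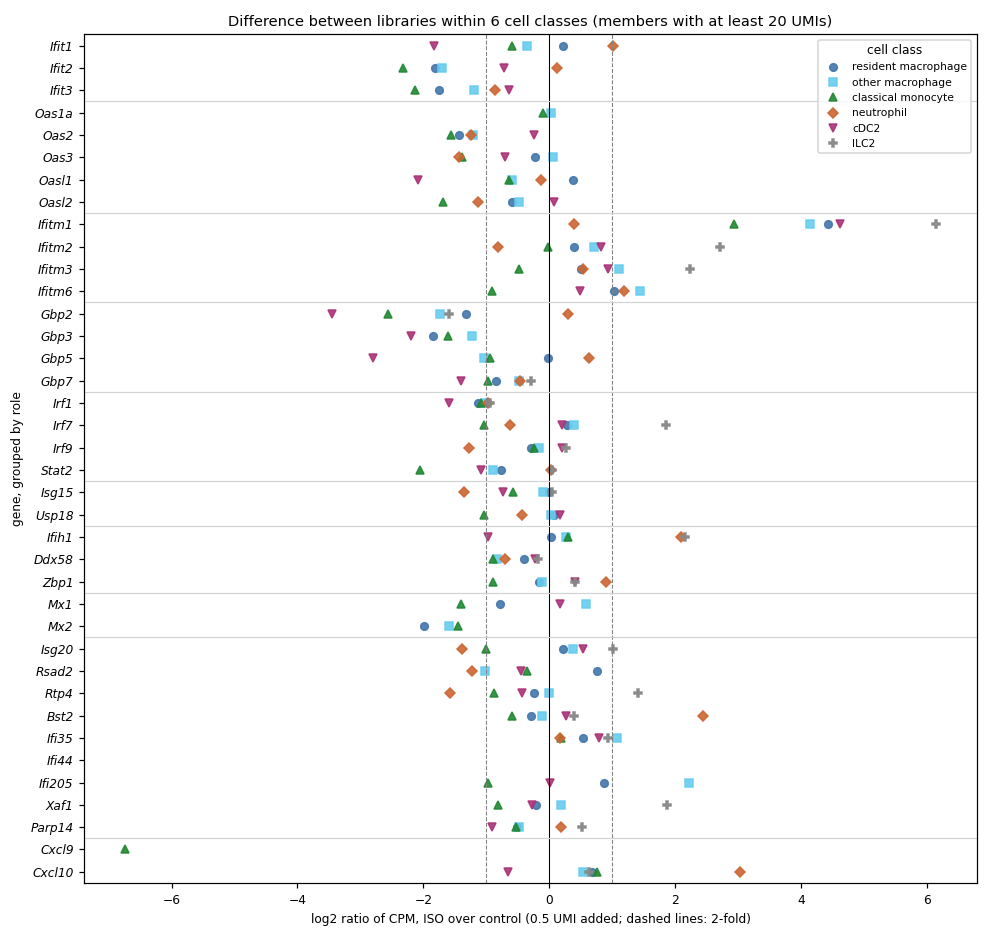
The log2 ratio of ISO over control (horizontal axis, 0.5 UMI added) of each member (rows, grouped by role), with 1 symbol for each compared class in which the gene had at least 20 UMIs and dashed lines at 2-fold. Every Ifitm1 symbol lies above 0, the guanylate-binding symbols lie below 0 outside neutrophils, and Ifi44 has no symbol.

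Ifit genes, whose products bind foreign RNA, were lower in ISO in the macrophage and monocyte classes. Ifit3 went from 22.1 to 6.34 CPM in resident macrophages, from 37.6 to 16.2 CPM in other macrophages and from 170 to 39.1 CPM in classical monocytes, log2 ratios of -1.76 (-2.77 to -0.95), -1.20 and -2.13. It was below 0 in all 5 classes with 20 UMIs, at -0.86 in neutrophils (96.7 and 53.5 CPM) and -0.65 in cDC2. Ifit2 was lower in the same 3 classes, going from 12.8 to 3.41 CPM in resident macrophages, from 35.7 to 10.8 CPM in other macrophages and from 114 to 22.8 CPM in classical monocytes (log2 ratios -1.82, -1.70 and -2.33). In control classical monocytes single cells weighed heavily, as 28 of 53 Ifit2 UMIs and 35 of 79 Ifit3 UMIs came from 1 cell each. Ifit1 did not follow its neighbours, being close to level in resident macrophages (19.8 and 22.9 CPM), lower in cDC2 (140 and 39.4 CPM, log2 -1.83) and higher in neutrophils (43.9 and 90.9 CPM, log2 1.01, but -0.08 with barcodes of more than 1 lineage added to the class). Summed, the family went from 364 to 115 CPM in classical monocytes, from 169 to 58.3 CPM in cDC2, from 134 to 74.9 CPM in other macrophages and from 54.7 to 32.7 CPM in resident macrophages. In neutrophils the sum was 158 and 164 CPM, a log2 ratio of 0.05. Arg1-high macrophages of ISO had 69.1 CPM, within the range of the other 2 macrophage classes of either library.

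Oas genes were within 2-fold or lower in each of the 22 pairs with enough UMIs. Oas2 was at least 2-fold lower in 4 of 5 classes, going from 56.2 to 20.5 CPM in resident macrophages, from 37.3 to 15.8 CPM in other macrophages, from 75.3 to 25.6 CPM in classical monocytes and from 76.2 to 32.1 CPM in neutrophils, and was at 14.7 and 12.8 CPM in cDC2. Oas3 was lower in classical monocytes (99 and 38 CPM) and neutrophils (185 and 68.2 CPM) and level in other macrophages (15.3 and 15.8 CPM). Oasl2 showed the same split, at 144 and 44.8 CPM in classical monocytes and 173 and 78.9 CPM in neutrophils, against log2 ratios of -0.59 and -0.48 in resident and other macrophages. Oasl1 was at least 2-fold lower in cDC2 only (70.5 and 16.7 CPM, log2 -2.08), with log2 ratios from -0.64 to 0.38 in the other 4 classes. Oas1a had at most 25 UMIs in any compared class and was level in other macrophages (3.82 and 3.86 CPM) and classical monocytes (4.3 and 4.91 CPM). In ILC2 no single Oas gene reached 20 UMIs, and their sum went the other way, from 15.8 to 47.9 CPM (16 and 24 UMIs, log2 1.58, 0.62 to 2.61). The Oas sum of Arg1-high macrophages in ISO was 116 CPM, beside 94.6 and 91.1 CPM in the resident and other macrophages of that library.

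Mx2, an antiviral GTPase of the cytoplasm in the mouse, was lower in all 3 classes where it was counted, from 8.59 to 1.95 CPM in resident macrophages, from 12.1 to 3.86 CPM in other macrophages and from 23.7 to 8.96 CPM in classical monocytes. Mx1 and Mx2 are both known to be defective in common laboratory strains of mice, so their transcripts are read here as response markers and not as antiviral proteins. Mx1 was lower in classical monocytes (83.9 and 31.8 CPM, log2 -1.41), while its log2 ratios in resident macrophages, other macrophages and cDC2 were -0.79, 0.58 and 0.17.

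Guanylate-binding genes, typical targets of interferon-gamma and Irf1, were at least 2-fold lower in 12 of 21 pairs and higher in none. Gbp2 went from 18.7 to 7.31 CPM in resident macrophages, from 26.1 to 7.72 CPM in other macrophages, from 99 to 16.9 CPM in classical monocytes, from 22 to 1.92 CPM in cDC2 and from 32.6 to 9.97 CPM in ILC2. The corresponding log2 ratios were -1.32, -1.73, -2.56, -3.45 (-5.17 to -2.07) and -1.60, and only in neutrophils was the ratio above 0 (17.6 and 22.7 CPM, from 6 and 17 UMIs). The counts behind cDC2 were small, 15 UMIs in control and 6 in ISO. Gbp3 was at least 2-fold lower in all 4 classes with 20 UMIs, most in cDC2 (22 and 4.8 CPM, log2 -2.20) and resident macrophages (39.3 and 10.7 CPM, log2 -1.85). Gbp5, which promotes inflammasome assembly, was lower in cDC2 (25 and 3.52 CPM, log2 -2.80) and other macrophages (31.2 and 15 CPM, log2 -1.04) and level in resident macrophages (19.5 and 19 CPM). Gbp7 was below 0 in all 6 classes, from -0.30 in ILC2 (114 and 91.7 CPM) to -1.41 in cDC2 (61.7 and 23.4 CPM). The sum of the 4 genes went from 162 to 83.9 CPM in resident macrophages, 158 to 81 CPM in other macrophages, 306 to 108 CPM in classical monocytes and 131 to 33.6 CPM in cDC2, and Arg1-high macrophages of ISO had 79.5 CPM. Neutrophils again stood apart, with 117 and 111 CPM.

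Irf1, a transcription factor that interferon-gamma raises, was below its control level in all 6 classes, by at least 2-fold in 4 of them. Its levels were 209 and 95.1 CPM in resident macrophages, 230 and 112 CPM in other macrophages, 220 and 104 CPM in classical monocytes, 639 and 325 CPM in neutrophils, 137 and 45.2 CPM in cDC2 and 129 and 65.8 CPM in ILC2. The log2 ratios lay between -0.95 and -1.60, with a median of -1.06, and Arg1-high macrophages of ISO were at 100 CPM. Cxcl9, the chemokine most closely tied to interferon-gamma, reached 20 UMIs in classical monocytes alone, where it went from 170 to 1.49 CPM (log2 -6.74). That value rested on a single cell, which held 76 of the 79 control UMIs, and all 7 ISO UMIs also lay in 1 cell.

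Ifitm1 went the other way, with the largest upward ratio of the set in 5 of the 6 classes. It is a membrane protein that restricts virus entry at the cell surface. Its level went from 9.11 to 197 CPM in resident macrophages, from 14.6 to 259 CPM in other macrophages, from 56 to 434 CPM in classical monocytes and from 61.7 to 1536.9 CPM in cDC2. These were log2 ratios of 4.42 (3.93 to 4.98), 4.13 (3.71 to 4.61), 2.93 (2.40 to 3.57) and 4.62 (4.20 to 5.11), or 21.3-fold, 17.5-fold, 7.62-fold and 24.6-fold. In ILC2 1 control UMI stood against 52 ISO UMIs, a log2 ratio of 6.14 (4.17 to 12.04). Neutrophils had the highest control level of any compared class, 1040.0 CPM, and moved least, to 1364.1 CPM. Arg1-high macrophages of ISO were at 175 CPM, close to the resident macrophages of the same library.

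The other Ifitm genes moved less and not in the same classes. Ifitm3, the endosomal member of the family, went from 999 to 2147.2 CPM in other macrophages (log2 1.10), from 1708.6 to 3256.3 CPM in cDC2 (0.93) and from 1478.1 to 2090.3 CPM in resident macrophages (0.50), but from 5528.7 to 3978.3 CPM in classical monocytes (-0.48). Ifitm2 followed with log2 ratios of 0.71, 0.82, 0.39 and -0.02 in the same order of classes. Ifitm6 went from 33.6 to 68.8 CPM in resident macrophages (1.03), from 27.1 to 72.9 CPM in other macrophages (1.43) and from 141 to 321 CPM in neutrophils (1.18), and from 656 to 350 CPM in classical monocytes (-0.91). Beside the macrophage values, the summed level of the 8 classical monocyte markers, all of them detected in both libraries, went from 344 to 2338.5 CPM in resident macrophages and from 459 to 2626.8 CPM in other macrophages, and the part of this in the Ifitm values was not tested. In classical monocytes themselves, Ifitm1 alone of the 4 was higher.

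The balance of Ifitm1 and Ifitm3 within a class does not depend on the scaling of the library. Ifitm1 made up 0.613% of the UMIs of both genes in control resident macrophages and 8.61% in those of ISO, 1.45% and 10.8% in other macrophages, 1% and 9.84% in classical monocytes and 3.49% and 32.1% in cDC2. In neutrophils it was 47.9% and 45.6%. The difference was also seen cell by cell. With each cell thinned at random to 1000 UMIs, the share of cells with an Ifitm1 UMI was 3.17% in control and 57% in ISO among cDC2 (22.2% and 91.7% unthinned), 3.92% and 23.2% among classical monocytes, 1.4% and 12.7% among other macrophages, 0.612% and 7.46% among resident macrophages and 42.9% and 66.4% among neutrophils. B cells, with median depths of 3253 and 3247 UMIs, had shares of 0.108% and 2.7%, the latter being 1 of 37 cells.

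**Figure D3:**
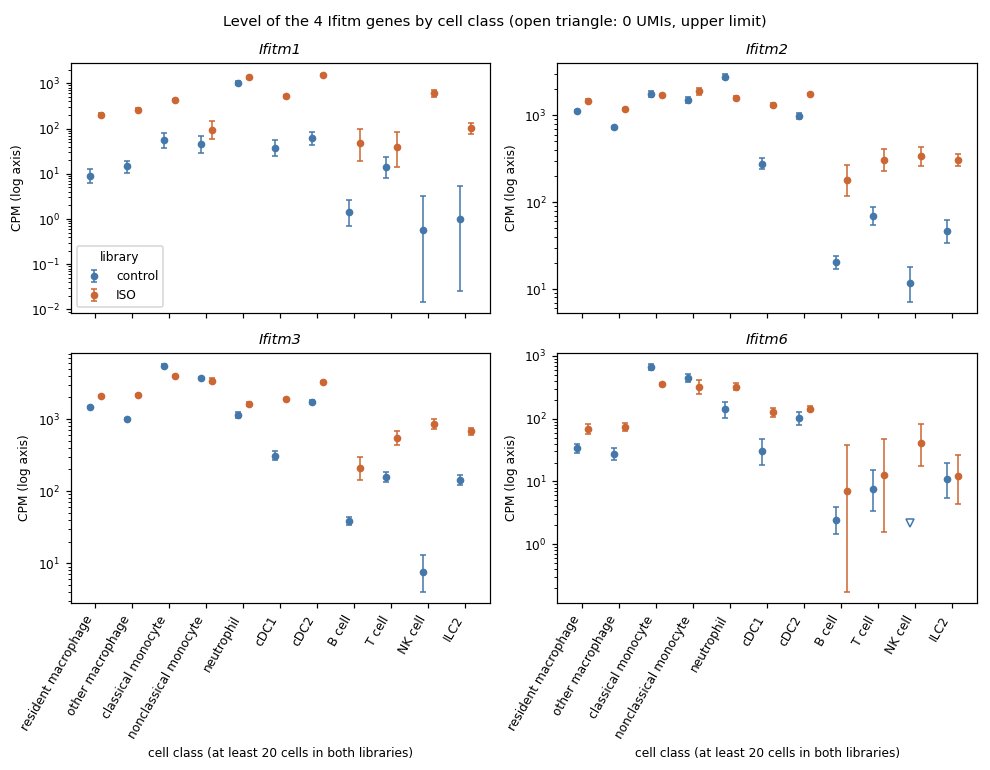
Levels of the 4 Ifitm genes in control and ISO by cell class with at least 20 cells in both libraries, in CPM on a log axis with exact Poisson 95% intervals as bars and an open triangle for the upper limit of 0 UMIs. Ifitm1 is higher in ISO in each compared class, from 61.7 to 1536.9 CPM in cDC2, where Ifitm3 goes from 1708.6 to 3256.3 CPM.

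Signalling members other than Irf1 differed by class. Stat2, which carries the type I interferon signal to the nucleus, was lower in classical monocytes (144 and 35 CPM, log2 -2.05) and cDC2 (61.7 and 29.5 CPM, log2 -1.08). Irf9, the DNA-binding subunit of that complex, was within 2-fold everywhere except in neutrophils (117 and 48.1 CPM, log2 -1.28). Irf7, the factor that amplifies type I interferon, went from 314 to 153 CPM in classical monocytes (log2 -1.04) and from 10.9 to 39.9 CPM in ILC2 (log2 1.85, from 11 and 20 UMIs), and was within 2-fold in both macrophage classes, at 39.3 and 47.8 CPM in the resident ones.

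Isg15, the ubiquitin-like protein that is conjugated to targets under interferon, was level in macrophages. It stood at 156 and 155 CPM in resident macrophages, 233 and 217 CPM in other macrophages and 115 and 118 CPM in ILC2, and at 288 CPM in Arg1-high macrophages of ISO. It was lower in neutrophils (853 and 332 CPM, log2 -1.36, -1.61 to -1.11) and, by less than 2-fold, in classical monocytes (510 and 341 CPM) and cDC2 (257 and 155 CPM). Usp18, which removes ISG15 and dampens the receptor, was at least 2-fold lower in classical monocytes only (81.8 and 40.1 CPM) and between 15.4 and 22 CPM in both macrophage classes of both libraries.

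Among the sensors of cytoplasmic nucleic acid, Ddx58 (RIG-I) was below 0 in all 6 classes but never by 2-fold, with 40.9 and 30.7 CPM in resident macrophages. Ifih1 (MDA5) was higher in neutrophils (41 and 181 CPM, log2 2.09) and ILC2 (7 and 16 UMIs, log2 2.15) and level in resident macrophages (70.5 and 71.2 CPM). Zbp1, a sensor of Z-form nucleic acid, was within 2-fold in all 6 classes, between -0.89 in classical monocytes and 0.89 in neutrophils.

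Of the remaining effectors, Rsad2 (viperin) went from 132 to 64.4 CPM in other macrophages (log2 -1.03), where 120 of 415 control UMIs came from 1 cell, and from 25.8 to 43.4 CPM in resident macrophages (0.75). It was lower in neutrophils (384 and 163 CPM, log2 -1.23). Ifi35 was above 0 in all 6 classes, from 45.5 to 95.7 CPM in other macrophages (1.07) and by 0.17 to 0.93 elsewhere. Ifi205 went from 13.7 to 64.4 CPM in other macrophages (2.22) and from 146 to 74.7 CPM in classical monocytes (-0.98). Rtp4 and the exonuclease Isg20 were lower in neutrophils, at 252 and 84.3 CPM and at 193 and 73.6 CPM, and both were higher in ILC2. Isg20 was also lower in classical monocytes, at 96.8 and 48.4 CPM. Parp14 was within 2-fold in all 6 classes, and Xaf1 in all but ILC2 among the 5 classes where it was counted. Cxcl10, a chemokine of T and NK cells that type I interferon also raises, went from 128 to 204 CPM in resident macrophages, 242 to 348 CPM in other macrophages and 196 to 332 CPM in classical monocytes, all under 2-fold, and from 32.2 to 274 CPM in neutrophils (log2 3.03, 2.22 to 4.11). In cDC2 it was at 203 and 128 CPM. Arg1-high macrophages of ISO were at 323 CPM.

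Other cell markers moved together with the neutrophil and ILC2 values. In neutrophils the summed neutrophil markers went from 122360.4 to 69296.0 CPM, the 12 macrophage markers from 829 CPM (Trem2 at 0) to 2022.1 CPM (none at 0) and the 8 classical monocyte markers from 2247.1 CPM (Chi3l3 at 0) to 4005.4 CPM (none at 0). The neutrophil members that were higher in ISO were Cxcl10, Bst2 (17.6 and 102 CPM), Ifih1, Ifitm6 and Ifit1, and the part of other cells' RNA in them was not tested. In ILC2 the macrophage markers went from 269 to 1144.4 CPM, with all 12 detected in both libraries, and the monocyte markers from 1147.4 CPM (4 of 8 detected) to 2057.6 CPM (8 of 8). Ifitm2 (46.5 and 307 CPM) and Ifitm3 (144 and 678 CPM) were among the ILC2 members that were higher, and the same part was not tested for them.

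A response carried by the same cell was counted from the core. A cell was called responding when at least 3 of the 18 core genes had a UMI after thinning to 1000 UMIs, which makes cells of different depth comparable. Over all cells of at least 1000 UMIs, 161 of 5627 control cells (2.86%, exact binomial 2.44 to 3.33) and 358 of 5437 ISO cells (6.58%, 5.94 to 7.28) responded. The 2 libraries differ in class makeup, and within classes the order was not the same. Classical monocytes went from 14 of 51 cells (27.5%, 15.9 to 41.7) to 57 of 611 (9.33%, 7.14 to 11.9), neutrophils from 24 of 119 (20.2%) to 17 of 110 (15.5%), cDC2 from 6 of 63 (9.52%) to 13 of 314 (4.14%), other macrophages from 32 of 430 (7.44%) to 19 of 292 (6.51%) and resident macrophages from 15 of 490 (3.06%) to 4 of 201 (1.99%). Arg1-high macrophages of ISO had 130 of 1821 (7.14%, 6 to 8.42). With the 3 macrophage classes and classical monocytes summed, 63 of 976 control cells (6.45%) and 210 of 2925 ISO cells (7.18%) responded. This order turned with Isg15 and Cxcl10 left out of the core (3.79% in control and 3.52% in ISO). B cells, at the bottom of the core order, gave 4 of 1846 (0.217%) in control and 0 of 37 in ISO, which allows up to 9.49%. No background rate of the call was measured.

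Thinning mattered to the size of these shares. Without it, 25.2% of control and 51.4% of ISO cells had 3 core genes, with 35.9% and 40.3% of resident macrophages, 37% and 49% of other macrophages and 39.5% and 55.5% of neutrophils, so that the order of the libraries turned in these 3 classes. It also turned in other macrophages with 2 core genes (15.3% and 19.5%) or with more UMIs kept per cell (15.2% and 16.1%), and with barcodes of more than 1 lineage added in other (5.27% and 6.05%) and resident macrophages (3.51% and 4.24%). The control classical monocyte share, from 51 cells, was 17.6% with another random draw of UMIs, against 9.49% in ISO. The call is a range and not a cell type, since 260 control and 576 ISO cells had exactly 2 core genes and 83 and 197 had exactly 3, and the most in any cell was 12 in either library.

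**Figure D4:**
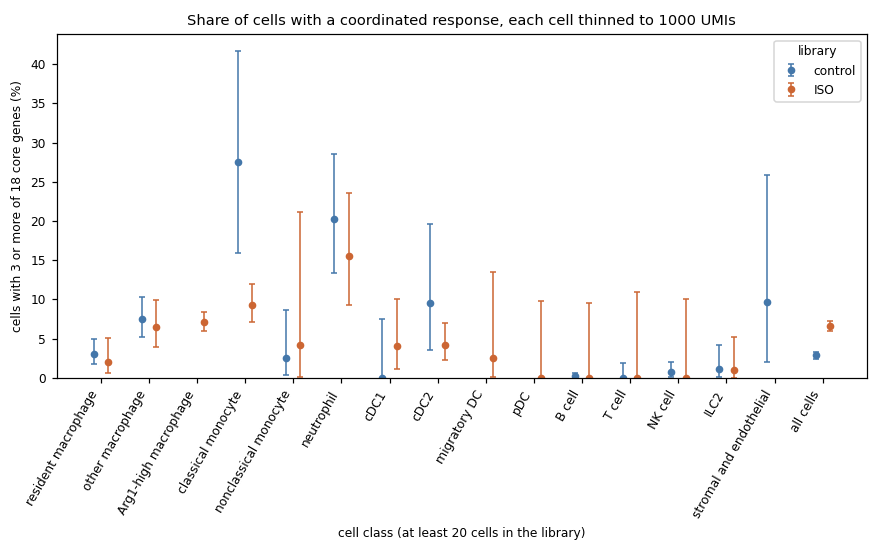
Percent of cells with at least 3 of the 18 core genes after thinning to 1000 UMIs, by cell class in control and ISO, with exact binomial 95% intervals as bars. Classical monocytes (27.5% and 9.33%) and neutrophils (20.2% and 15.5%) stand highest, and the control B cells, at 0.217%, lie near 0.

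Responding cells hold more core UMIs by the way they are chosen, so their share is a description. They held 67.2% of the core UMIs of control classical monocytes and 48.2% of those of ISO, 60.9% and 45.8% in neutrophils, 44% and 27.4% in other macrophages and 20.5% and 6.77% in resident macrophages, while in Arg1-high macrophages of ISO 130 cells held 32.9%. By contrast 70.8% of control B cells had no core UMI. Single genes were found together as well, again after thinning. Among Arg1-high macrophages of ISO, 6.17% of cells with an Isg15 UMI also had an Ifit3 UMI, against 0.264% of the other cells, and for Rsad2 the shares were 14.6% and 3.5%. In ISO classical monocytes Ifit3 was found in 11.5% of cells with Isg15 and 0.602% of the others. In ISO neutrophils it was found in 12.5% (4 of 32 cells) and 1.28%. The control library showed the same for Ifit3, with 12.5% and 1.87% in other macrophages and 10.4% and 0% in neutrophils. ISO resident macrophages did not, with 0 of 18 cells with Isg15 and 1.09% of the others.

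Members that did not enter the call were then compared between responding and other cells of the same class and library. The 4 class and library sets with at least 20 responding cells were used, with 19 members outside the core tested in each of the 3 larger ones. In Arg1-high macrophages of ISO, 12 of 19 were at least 2-fold higher in the 130 responding cells, where 3.97% of all genes were, and the median log2 ratio was 1.61 against -0.06 for all genes. ISO classical monocytes had 13 of 19, against 4.22% of all genes, with a median of 1.56 against -0.08. Control macrophages of the other class had 12 of 19, against 5.8%, with a median of 1.37 against -0.06, and control neutrophils 6 of 10, against 3.98%, with a median of 1.15 against 0.03. Depth was close, as median UMIs of responding and other cells were 8616 and 8662, 7229 and 6980, 6513 and 5982, and 2622 and 2708 in that order.

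The families separated again inside these cells. Gbp2 was at 64.6 CPM in responding and 4.53 CPM in other Arg1-high macrophages (log2 3.83) and at 79.9 and 10.2 CPM in ISO classical monocytes (2.98). Isg20 had log2 ratios of 2.87 and 2.92 in these sets, Ifi205 of 2.32 and 2.72 and Bst2 of 1.70 and 1.57. In control macrophages of the other class Gbp2 was at 20 CPM in responding and 26.6 CPM in other cells, while Gbp3, Gbp5 and Gbp7 were at least 2-fold higher in responding cells. Ifitm1, which was so much higher in ISO, was at 155 CPM in responding and 177 CPM in other Arg1-high macrophages (-0.18) and at 431 and 435 CPM in ISO classical monocytes (-0.01). Ifitm2 was as level, at -0.04 and -0.10. Ifitm3 had log2 ratios of 0.69 and 0.45 in these sets, 0.94 in control macrophages of the other class and 1.24 in control neutrophils, where it was at 2133.9 CPM in responding and 905 CPM in other cells. Irf1 had ratios of 0.88 and 0.21.

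**Figure D5:**
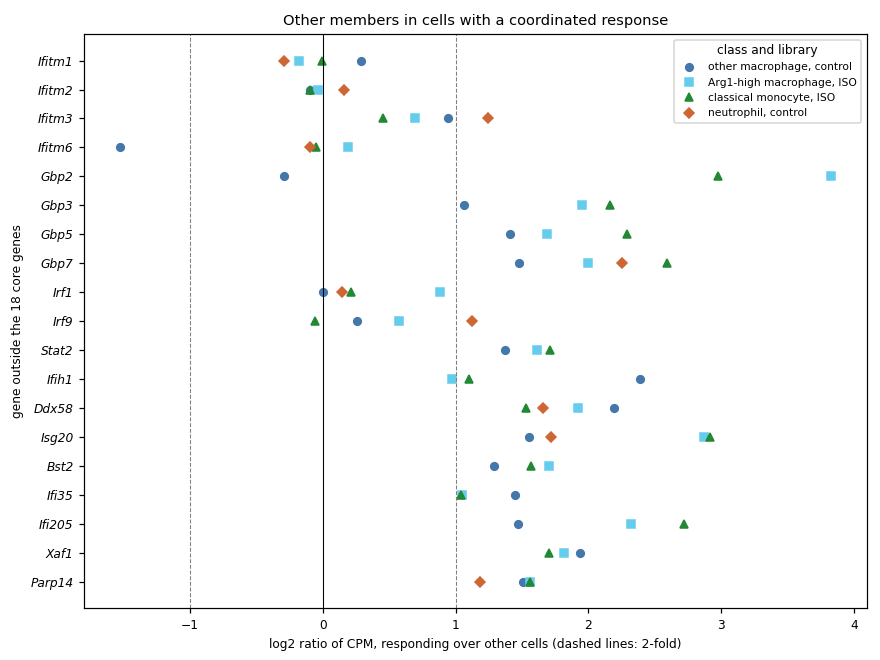
The log2 ratio of CPM of responding over other cells (horizontal axis, dashed lines at 2-fold) for the members outside the core (rows), with 1 symbol for each of the 4 class and library sets in which the gene had at least 20 UMIs. Most symbols lie above 1, those of Ifitm1 and Ifitm2 lie near 0, and Ifitm6 of the control macrophages lies at -1.53.

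Genes of the pathway that are not members came from a list chosen for function. Of 21 interferon genes 10 had a row. Ifnb1 (IFN-beta) had 1100 UMIs in 182 control cells and 3132 UMIs in 599 ISO cells. Its level was 16.9 and 22.9 CPM in resident macrophages, 86.9 and 110 CPM in other macrophages, 49.5 and 90.7 CPM in classical monocytes, 39.7 and 31.7 CPM in cDC2 and 60.2 CPM in Arg1-high macrophages of ISO, and it passed 2-fold in neutrophils only (2.93 and 53.5 CPM, log2 3.62). Within Arg1-high macrophages of ISO Ifnb1 was at 310 CPM in responding cells and 41.1 CPM in the others, and within ISO classical monocytes at 571 and 39.7 CPM. The control library showed the same within other macrophages, at 511 CPM in responding cells and 50.2 CPM in the others. Ifng had 1269 UMIs in 371 control cells and 236 UMIs in 83 ISO cells, with 452 and 334 CPM in NK cells, whose number went from 426 to 35. In T cells the Ifng level went the other way, from 88.7 to 136 CPM (92 and 21 UMIs), while their number went from 192 to 32. The alpha genes were close to 0, and the 18 UMIs of Ifna2 came from 1 ISO cell.

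No receptor gene differed by 2-fold in any of the 6 classes, of 5 tested in each. Among all pairs of a gene and a class, 11.3% were higher and 11% lower. Within a class, 5 genes are too few to set against that share. Ifnar1 was at 107 and 90.7 CPM in resident macrophages and at 49.5 and 89 CPM in classical monocytes, and Ifngr1 at 482 and 302 CPM in the latter. Of the 13 signalling genes tested in resident and in other macrophages, Stat3 alone passed 2-fold, in other macrophages (341 and 163 CPM). The sensing genes tested numbered 14 in each of these classes. Ikbke, a kinase that activates IRF3, was higher in resident macrophages (5.73 and 29.7 CPM) and other macrophages (3.82 and 40.9 CPM). Tlr7 was lower in other macrophages (79.3 and 30.9 CPM). Beside these, 7.8% of all genes were higher and 9.76% lower in resident macrophages, and 9.47% and 12.4% in other macrophages.

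Another 46 interferon-induced genes were counted by class in the same way. At least 2-fold lower were 17 of 38 in classical monocytes with none higher, 4 of 38 in resident and 6 of 40 in other macrophages with 3 higher in each, 7 of 30 in neutrophils with 5 higher, 2 of 34 in cDC2 with 2 higher and 1 of 29 in ILC2 with 2 higher. Of all genes, 14.6% were lower in classical monocytes, 9.76% in resident and 12.4% in other macrophages. In neutrophils 13.4% of all genes were lower, in cDC2 9.3% and in ILC2 6.41%. The share of listed genes that were lower was above this background in classical monocytes and neutrophils, near it in macrophages and below it in cDC2 and ILC2. Of all genes, 10.7% were higher in classical monocytes, 7.8% in resident and 9.47% in other macrophages. In neutrophils 27% of all genes were higher, in cDC2 9.14% and in ILC2 11.2%. The share of listed genes that were higher was near this background in macrophages and below it in the other classes. The 3 that were higher in both macrophage classes were Slfn1 (log2 2.10 and 3.03), Ifi30, a lysosomal thiol reductase (1.21 and 1.73), and Ms4a4c (1.38 and 1.59). Ms4a4c is among the leading genes of the classical monocyte class, whose markers were higher in both macrophage classes as given with the Ifitm values, and their part in these 3 genes was not tested. Iigp1 and Irgm2, immunity-related GTPases that interferon-gamma raises, were lower in both (Iigp1 -2.46 and -2.89, Irgm2 -1.12 and -1.27). In resident macrophages Dtx3l and Nlrc5 were also lower, and in other macrophages Gbp4, Herc6, Cmpk2 and the Ifit3 copy I830012O16Rik.

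Over 26 sums of a class and library and 10099 genes, the 10 genes outside the set whose log2 level was most like that of the core were Mir22hg and Picalm (Pearson r = 0.86 each), Arhgap23 (0.85), Map2k3, Arrdc4, Ifi204 and Tnfaip2 (0.84 each) and Cebpd, Myd88 and Cask (0.83 each). The sums share libraries and depth and their classes are not independent, so the values only rank genes. Ifi204, a DNA sensor, was in the pathway list, as was Myd88, the adaptor of Toll-like receptors.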

How the data were processed

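Live CD45+ cells of 3 pooled hearts per group were profiled by 10x Chromium 3' (v3) sequencing, 1 library per group. Per the labels and the study's methods, the authors used bcl2fastq 2.19.1.403, UMI-tools 1.0.0, STAR 2.7.3a and featureCounts 1.6.4 (Subread) on mm10, and deposited counts of UMIs per gene and barcode without normalization. The gene annotation is not given in the sources used here. The deposited count tables held 5927 control and 5514 ISO barcodes with 47382455 and 58495112 UMIs.

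The study's filters were applied (over 500 and under 6000 genes, under 25% mitochondrial UMIs). No doublet caller was run. Cells were scored as the mean log2(1 + UMIs scaled to an equal total per cell) over each class's markers, divided by the level that the top 1 in 500 cells reach, and given the class of the highest score if it was at least 0.35 with at least 3 markers. Macrophages and monocytes were split by a resident score of 0.3 and an Arg1-high score of 0.4, and barcodes with another lineage at 0.25 or above were kept apart. These limits were set after seeing marker levels, without looking at members. The members and lists were chosen with earlier results of these data known. UMIs were summed per class and library. Ratios had 0.5 UMI added, and genes needed 20 UMIs over both libraries. With 1 library per group no test was run. Intervals at 95% are exact Poisson, Clopper-Pearson or conditional exact ones and cover counting error only, and their script was tested on simulated data. Cells were thinned once to 1000 UMIs, which left out 14 control cells. Positions came from GENCODE M21 (38 members matched) and promoter windows from RefSeq on GRCm38.p6 (31 matched). Named genes were all members, the 5 largest ratios each way per class and a pathway list. Alternatives to the UMI minimum, added UMI, scaling, thinning, mitochondrial, core gene and gate settings were computed, but not to the limits of the resident and Arg1-high split or the marker minimum. Some listed genes are not reported here. Python 3.11.15, numpy 2.4.6, scipy 1.17.1, pandas 2.3.3 and matplotlib 3.10.9 were used.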

Additional observations from a re-analysis of the deposited data

Results flagged for a closer look

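4 members differed by at least 2-fold in opposite directions in different classes, and the differences between classes were not tested. For 3 of them the counting intervals left out 0 on both sides. Of all pairs of a gene and a class, 11.3% were higher and 11% lower. How many of all genes went both ways was not counted. Ifit1 had a log2 ratio of ISO over control of 1.01 in neutrophils and -1.83 in cDC2, a difference of 2.84, but the neutrophil value was -0.08 with barcodes of more than 1 lineage added. Irf7 was at 1.85 in ILC2 and -1.04 in classical monocytes, a difference of 2.89. Rtp4 was at 1.41 in ILC2 and -1.58 in neutrophils, a difference of 2.99. The interval of Isg20 in ILC2 (1.01, -0.05 to 2.07) included 0, beside -1.39 in neutrophils and -1.01 in classical monocytes. The neutrophil and ILC2 values rest on 11 to 86 UMIs per library. Their macrophage and monocyte markers were higher in ISO too, and the part of this in these genes was not tested.

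Cells outside the compared classes also held a coordinated response. Among barcodes with markers of more than 1 lineage, 7.53% of ISO and 3.7% of control barcodes had at least 3 core genes after thinning, with median depths of 11805 and 12930 UMIs before it. By the class they would otherwise have been given, these barcodes differed in makeup. Arg1-high macrophages were 0 in control and 512 in ISO, other macrophages 538 and 121 and resident macrophages 449 and 129. Neutrophils were 48 and 177 and B cells 102 and 9. The part of makeup in these shares was not tested. Among cells with too few markers for a class the shares were 4.54% in ISO and 0.435% in control, at 8290 and 2749 UMIs.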

How the results depend on the processing

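With 1 library per group no library could be left out and no paired analysis was possible because the labels give no replicate numbers. Of the 70 pairs of a member and a class past 2-fold, 69 stayed past it with 2 UMIs added and 61 with the median of all genes set to 0. With a 10% mitochondrial limit 69 stayed, with barcodes of more than 1 lineage added 51, and with each cell thinned to 1000 UMIs 28 of 42. After subtracting 5% of the summed profile of all deposited barcodes of the library, 66 of 67 stayed. That profile stood in for free RNA, which was not measured, and the 5% was assumed. The UMI minimum does not enter a ratio. The 70 of 70 with no minimum beyond 1 UMI and the 49 of 49 at 100 UMIs were therefore fixed in advance. Of alternatives chosen after seeing the data, a gate limit of 0.45 kept 50 of 62 and leaving out the top cell of each member 59 of 66. Higher pairs numbered 34 without the minimum and 14 at 100 UMIs against 22, and lower pairs 27 of the 118 with enough UMIs after thinning against 48 of 192. 1 pair reversed, Ifit1 in neutrophils, at -0.08 with barcodes of more than 1 lineage added against 1.01. The median log2 ratio of members ranged from -0.96 to -0.73 in classical monocytes, -0.27 to -0.01 in resident macrophages, -0.27 to 0.09 in other macrophages, -0.81 to 0.03 in neutrophils, -0.43 to 0.11 in cDC2 and 0.22 to 0.91 in ILC2. With a mean over cells in place of the sum, the Ifitm median over classes was 0.87 against 0.79 and the median over classes of the members' summed level in ISO 7044.8 against 6596.9 CPM. The log2 ratio of the share of responding classical monocytes was -0.59 without thinning against -1.60, and that of all cells 0.86 without Isg15 and Cxcl10 against 1.20. With the macrophage and monocyte classes summed, the members' median stood above that of all genes (-0.04 and -0.32), unlike in the 3 of them that were compared alone. Depth limits ILC2 and Ifi44, and control classical monocytes are 51 cells.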

Other observations

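Some classes with too few cells for a comparison had higher Ifitm sums in ISO as well, but not all. In nonclassical monocytes, 81 and 24 cells, the 4 Ifitm genes summed to 5704.3 CPM in control and 5712.3 CPM in ISO. In T cells, 192 and 32 cells, the sum was 251 and 912 CPM. Ifitm1 made up 8.33% and 6.59% of the Ifitm1 and Ifitm3 UMIs of these T cells. In NK cells, 426 in control and 35 in ISO, the 4 Ifitm genes summed to 19.9 CPM in control and 1848.5 CPM in ISO, and Ifitm1 had 1 UMI against 119. Macrophage markers in the same NK cells were at 224 CPM with 10 of 12 detected in control and at 626 CPM with 12 of 12 in ISO, and their part in the Ifitm value was not tested. In cDC1, 47 and 99 cells, the Ifitm sum was 655 and 3869.7 CPM, and the Ifit sum 20.6 and 69.4 CPM. Classical monocyte markers in the same cDC1 went from 789 CPM (Vcan, Chi3l3 and Hp at 0) to 1852.9 CPM (none at 0), and their part in these sums was not tested. None of the 47 control cDC1 cells responded, which allows up to 7.55% by the exact interval, and 4 of 99 in ISO did (4.04%). Migratory dendritic cells, 39 in ISO and 1 in control, had an Ifitm1 level of 998 CPM in ISO.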
